A study of Mus musculus with 27 samples.

Results

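Regions with histone H3 lysine 4 (H3K4) methylation that held the annotated start of a non-coding transcript, and of no protein-coding gene, were examined in hearts lacking *Kmt2d* in the myocardium. These regions were selected on their width, which is a measured value, and on annotation: a merged region of at least 1000 bp was kept when at least 1 transcription start site (TSS) of GENCODE vM1 lay inside it and none belonged to a gene of type protein_coding. This gave 1296 regions of the 358833 in the merged list, or of the 83067 that were at least 1000 bp wide. They covered 4.64 Mb and held 1769 TSS positions of 1415 non-coding genes. Of the others at that width, 15846 held a coding TSS and 65925 held no TSS.

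The hearts were taken at embryonic day E11.5 from C57BL/6 mice. Control embryos were *Tnnt2::Cre; Kmt2d fl/+; mTmG/+* and mutant embryos were *Tnnt2::Cre; Kmt2d fl/fl; mTmG/+*, so that both genotypes carried Cre, the mTmG reporter of Cre activity and at least 1 floxed allele, and the control myocardium was itself heterozygous for the deletion. The *Tnnt2* promoter drives Cre in heart muscle cells, while endocardial cells, fibroblasts and other cells of the pooled whole hearts keep *Kmt2d*. Each genotype had 3 pools of 30 hearts, from which an input library and a library for each of H3K4me1, H3K4me2 and H3K4me3 were made. The series comprised 27 libraries in 9 groups of 3. The remaining group, KMT2D ChIP-Exo in cardiomyocytes, and changes in H3K4me3 were not analysed here. The deposited lists gave coordinates without reads, fold changes or replicate values. A region was therefore either in the authors' list of lower H3K4me1 or lower H3K4me2 in mutant hearts or outside it. No difference could be set against the spread between pools, and the depth is unknown. Shares are given with 95% Wilson intervals, which cover counting error over regions only.

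KMT2D is a methyltransferase that adds methyl groups to H3K4, chiefly at enhancers. H3K4me1 is abundant at enhancers and along the flanks of promoters, H3K4me2 occurs at enhancers and promoters, and H3K4me3 peaks at active promoters. Long non-coding RNAs are transcribed and spliced like mRNAs but carry no long reading frame, and many start at CpG-rich promoters. MicroRNAs are cut from a hairpin inside a longer primary transcript, so the annotated start of a microRNA, small nucleolar RNA or other small RNA is the 5′ end of the processed RNA and is often not where its transcription begins. In the heart, miR-1 and miR-133 are made in muscle cells and the miR-208 pair lies in introns of the cardiac myosin heavy chain genes.

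Members of the separate lists differed in CpG content, as counted further below, and the starts printed here are examples only. Each line gives 150 bases before and 50 bases from the annotated start on, read 5′ to 3′ on the strand of transcription from assembly NCBIM37 (mm9), with every CpG dinucleotide in capitals. The genes were picked after their calls were known, and the first group leans to high counts. From 250 bases before to 50 bases from the start on, *Enox*, *B230206F22Rik* and *Snhg5* had 27, 28 and 34 CpG. The upper quartile of members with lower H3K4me2 was 23.8. Starts not printed include *Gm10664* and *Neat1*, with lower H3K4me2 and 6 and 9 CpG in a window of the printed length. *Gm17141*, with lower H3K4me1 and 9 CpG, is also not printed. The first group lay in regions with lower H3K4me2. *Enox* is the vM1 name of *Jpx*, an activator of *Xist* (chrX:100688745-100688944, plus strand, 22 CpG), and *B230206F22Rik* is *Ftx*, another gene of the X-inactivation center (chrX:100812244-100812443, minus strand, 27 CpG). *Snhg5* hosts small nucleolar RNAs (chr9:88417672-88417871, minus strand, 17 CpG). *Malat1* makes an abundant nuclear RNA of splicing speckles (chr19:5802622-5802821, minus strand, 8 CpG).
Enox: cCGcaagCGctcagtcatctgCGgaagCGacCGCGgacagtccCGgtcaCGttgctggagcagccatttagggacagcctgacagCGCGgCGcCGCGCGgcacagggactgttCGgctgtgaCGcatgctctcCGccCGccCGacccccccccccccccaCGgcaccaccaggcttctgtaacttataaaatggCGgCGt
B230206F22Rik: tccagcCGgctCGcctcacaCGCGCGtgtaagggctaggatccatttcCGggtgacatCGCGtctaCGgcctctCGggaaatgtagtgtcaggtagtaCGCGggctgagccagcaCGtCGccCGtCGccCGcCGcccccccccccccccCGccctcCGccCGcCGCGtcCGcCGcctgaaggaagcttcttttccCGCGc
Snhg5: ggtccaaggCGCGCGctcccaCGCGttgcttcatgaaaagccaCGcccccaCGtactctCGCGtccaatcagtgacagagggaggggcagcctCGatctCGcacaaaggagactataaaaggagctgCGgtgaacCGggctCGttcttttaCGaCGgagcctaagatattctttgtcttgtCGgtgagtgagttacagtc
Malat1: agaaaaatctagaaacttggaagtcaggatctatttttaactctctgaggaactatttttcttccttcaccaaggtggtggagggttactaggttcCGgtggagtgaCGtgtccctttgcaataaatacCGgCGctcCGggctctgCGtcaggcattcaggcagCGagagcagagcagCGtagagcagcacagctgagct

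The starts of the next group lay in regions with lower H3K4me1. *Gm14488* (chr2:30575528-30575727, minus strand) held 3 CpG, *B230206L02Rik* (chr11:93994649-93994848, plus strand) held 4 and *Gm16863* (chr16:21296896-21297095, minus strand) held 2. *Gm10151* (chr4:132641239-132641438, plus strand) was unlike these, with 20 CpG. *B230312C02Rik* (chr2:180120541-180120740, minus strand), whose region was in both lists and also holds *Mir1a-1*, had 2 CpG and a long GA repeat.
Gm14488: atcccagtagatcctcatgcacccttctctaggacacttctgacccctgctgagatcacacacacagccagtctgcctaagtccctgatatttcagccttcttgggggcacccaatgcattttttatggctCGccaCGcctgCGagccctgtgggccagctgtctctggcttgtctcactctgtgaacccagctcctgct
B230206L02Rik: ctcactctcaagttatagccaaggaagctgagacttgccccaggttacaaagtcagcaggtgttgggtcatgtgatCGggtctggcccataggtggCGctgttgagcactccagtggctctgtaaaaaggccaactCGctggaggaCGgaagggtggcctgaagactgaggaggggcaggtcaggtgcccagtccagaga
Gm16863: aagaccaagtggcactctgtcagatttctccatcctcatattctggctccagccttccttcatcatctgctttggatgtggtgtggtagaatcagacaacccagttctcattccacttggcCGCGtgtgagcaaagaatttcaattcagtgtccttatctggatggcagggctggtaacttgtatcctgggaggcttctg
Gm10151: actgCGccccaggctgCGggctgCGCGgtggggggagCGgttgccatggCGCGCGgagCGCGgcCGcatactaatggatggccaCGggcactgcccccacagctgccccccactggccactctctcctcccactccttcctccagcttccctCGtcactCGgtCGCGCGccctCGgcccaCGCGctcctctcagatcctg
B230312C02Rik: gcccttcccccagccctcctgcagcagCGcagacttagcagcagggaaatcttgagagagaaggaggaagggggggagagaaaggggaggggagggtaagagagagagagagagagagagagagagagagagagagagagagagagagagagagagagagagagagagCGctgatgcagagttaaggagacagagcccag

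Mature microRNAs are recognised by their seed, bases 2 to 8, which pairs with target mRNAs. Each line below gives 1 mature strand from RefSeq (GRCm38.p6) with the seed in capitals, for the named microRNAs whose hairpin start lay in a region with lower H3K4me2. miR-322-5p shares its seed with miR-195a-5p and miR-497a-5p, printed next to it, whose common region was in neither list. let-7i-5p has the seed of the let-7 family, which restrains proliferation. For *Mir1a-1* the RefSeq table held only the 5p strand, so the seed printed for it is not that of miR-1a-3p, which is not shown.
miR-322-5p: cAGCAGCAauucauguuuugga
miR-195a-5p: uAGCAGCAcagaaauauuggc
miR-497a-5p: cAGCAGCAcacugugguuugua
miR-503-5p: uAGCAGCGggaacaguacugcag
miR-351-5p: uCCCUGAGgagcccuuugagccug
let-7i-5p: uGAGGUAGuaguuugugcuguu
miR-193b-3p: aACUGGCCcacaaagucccgcu
miR-149-5p: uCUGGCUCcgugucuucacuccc
miR-153-3p: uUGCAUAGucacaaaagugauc
miR-681: cAGCCUCGcuggcaggcagcu
miR-760-3p: cGGCUCUGggucugugggga
miR-1a-1-5p: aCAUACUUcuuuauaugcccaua

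To determine how often H3K4 methylation was called lower at these starts, the members in each list were counted. H3K4me2 was called lower at 110 of 1296 members (8.49%, interval 7.09 to 10.1) and H3K4me1 at 40 (3.09%, interval 2.27 to 4.18). The same calls were made at 6.12% and 2.06% of all merged regions of at least 1000 bp, and at 1.87% and 0.761% of merged regions of any width. Both marks were called lower at 5 members (0.386%, interval 0.165 to 0.9), against 0.0795% of all regions of at least 1000 bp. A total of 145 members were in either list and 1151 in neither, and a member outside a list may still have changed by less than the authors' threshold. The share with lower H3K4me2 lay between that of regions with a coding TSS, 25.1% (interval 24.5 to 25.8), and that of regions with no TSS, 1.50% (interval 1.41 to 1.59). For H3K4me1 the order differed: 3.09% of members, 2.22% of regions with no TSS and 1.30% of regions with a coding TSS. Regions that held both a coding and a non-coding TSS had 32.9% with lower H3K4me2 and 1.11% with lower H3K4me1.

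Lower H3K4me2 was called more often in wider regions of each group. Among members of 1000 to 2000 bp, 5.24% had lower H3K4me2, and the share was 7.91%, 10.3% and 22.4% in the classes of 2000 to 4000 bp, 4000 to 8000 bp and at least 8000 bp. At those widths, regions with a coding TSS had 7.72%, 23.4%, 32.2% and 39.4%, and regions with no TSS had 0.893%, 1.89%, 3.26% and 6.90%. The intervals of members and coding regions overlapped only in the narrowest class, where members ran from 3.57 to 7.62 and coding regions from 6.80 to 8.75. For H3K4me1, members had 1.68%, 3.21%, 3.56% and 8.16%, where the 2 widest classes of regions with no TSS had 5.80% and 9.36%, with overlapping intervals. The median width of members was 2510 bp, against 3520 bp for coding regions and 1720 bp for regions with no TSS. The part of width in these shares was not tested.

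**Figure D1:**
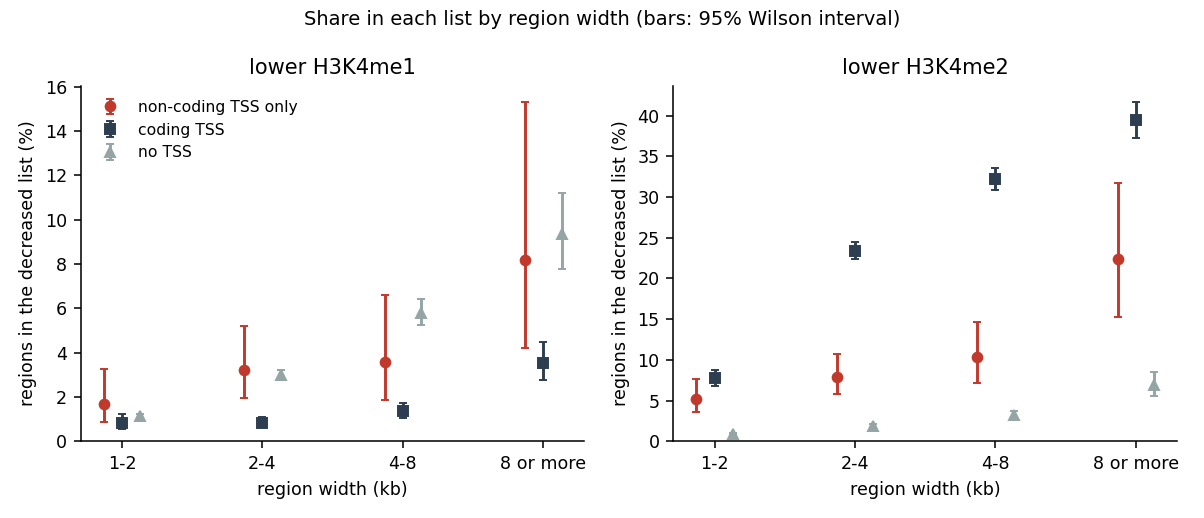
Share of regions in the list of lower H3K4me1 (left) and lower H3K4me2 (right) in mutant hearts, in percent, by width class, for members (circles), regions with a coding TSS (squares) and regions with no TSS (triangles), with 95% Wilson intervals. For H3K4me2 the members lie between the other groups at every width, from 5.24% to 22.4%.

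Just inside the width limit, 139 members of 1000 to 1240 bp included 4 with lower H3K4me2 and 0 with lower H3K4me1, and just outside it, 124 regions of 760 to 1000 bp included 1 with lower H3K4me2, at the start of *Gm5972* (chr19:30613866-30614705, 840 bp). The narrowest called members, *Gm15852* (a lincRNA) and *CT030240.1* (a predicted microRNA), were each 1020 bp wide.

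Long intergenic non-coding RNAs (lincRNAs) were the type with most H3K4me2 calls. Of 310 members with a lincRNA TSS, 52 had lower H3K4me2 (16.8%, interval 13 to 21.3). The annotation's other large class, processed_transcript, which holds antisense and other spliced RNAs without a clear reading frame, had 36 of 535 (6.73%, interval 4.90 to 9.18), and the intervals did not overlap. Pseudogenes had 6 of 171 (3.51%, interval 1.62 to 7.44), microRNA hairpins 10 of 125 (8.0%, interval 4.4 to 14.1), small nuclear RNAs 7 of 66 (10.6%), small nucleolar RNAs 6 of 66 (9.09%), and other structured RNAs (misc_RNA) 5 of 34 (14.7%, interval 6.45 to 30.1). None of the 17 regions at immunoglobulin gene segments was called, which allows a share of up to 17.6%. A region with TSS of several types counts under each. For H3K4me1 the intervals of these types overlapped, from 8 of 310 lincRNA members (2.58%) and 18 of 535 processed_transcript members (3.36%) to 7 of 125 microRNA members (5.60%) and 5 of 66 small nuclear RNA members (7.58%).

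**Figure D2:**
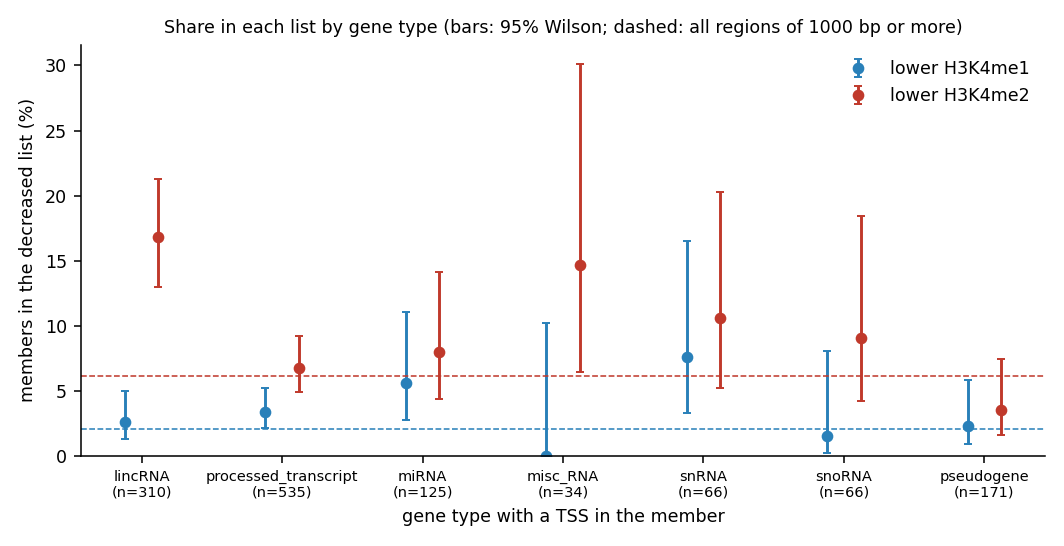
Share of members in each decreased list, in percent, by the gene type of the TSS inside, with 95% Wilson intervals and the number of members in parentheses. Dashed lines mark 2.06% and 6.12%, the shares of all merged regions of at least 1000 bp; lincRNA members stand at 16.8% for H3K4me2.

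CpG content moved with this split, and its part in it was not tested. The ratio of observed to expected CpG over the region had a median of 0.349 in lincRNA members and 0.256 in processed_transcript members. Within the highest quartile of that ratio, 31 of 126 lincRNA members (24.6%, interval 17.9 to 32.8) and 18 of 102 processed_transcript members (17.6%) had lower H3K4me2, so that the intervals overlapped. In the next quartile the shares were 17.2% (interval 10.9 to 26.1) and 5.19% (interval 2.53 to 10.3), and the intervals did not. By width the lincRNA share was above the other in each class. It was 12% against 4.28% at 1000 to 2000 bp and 37.5% against 22.9% at 8000 bp or more. In both of these classes the intervals overlapped.

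The shares of both marks differed along CpG content. From the lowest to the highest quartile, lower H3K4me2 was called at 0.926%, 4.63%, 9.26% and 19.1% of members, and lower H3K4me1 at 3.7%, 6.17%, 2.16% and 0.309%. Regions with a coding TSS in the same ranges had 4.41%, 8.96%, 18.2% and 32.7% for H3K4me2 and 5.85%, 4.23%, 1.69% and 0.165% for H3K4me1. In members the H3K4me2 share rose over all quartiles, as in coding regions, whereas the H3K4me1 share was highest in the second quartile, with an interval that overlapped that of the lowest, and in coding regions it was highest in the lowest quartile. The median ratio was 0.423 for members with lower H3K4me2, 0.223 for those with lower H3K4me1 and 0.262 for those in neither list. Within every width class the H3K4me2 share was higher in the highest than in the lowest quartile, with 12.3% against 0.787% at 1000 to 2000 bp and 39.1% against 0 of 50 members at 4000 to 8000 bp.

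**Figure D3:**
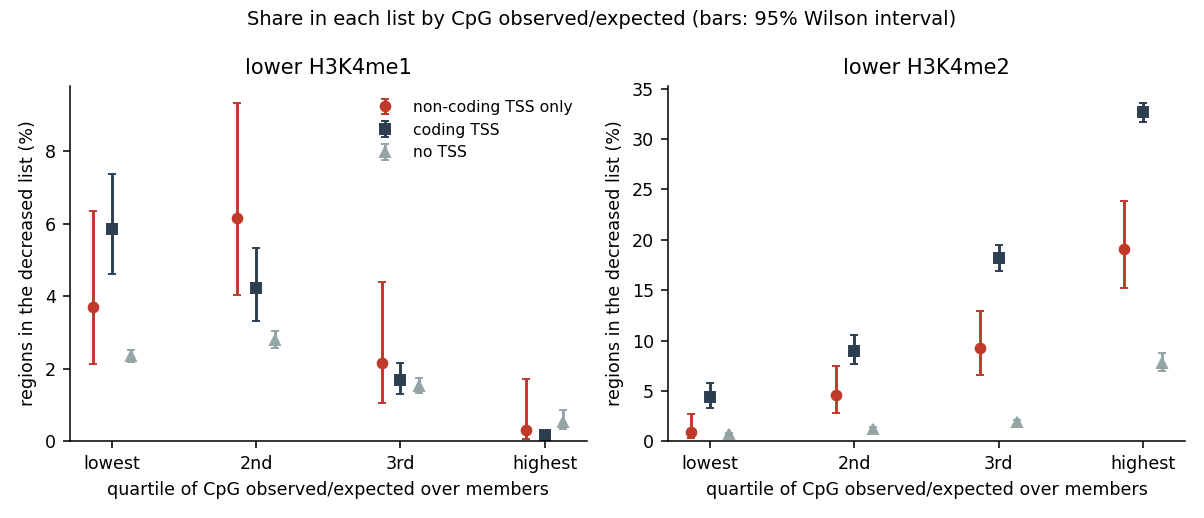
Share of regions in each decreased list, in percent, by quartile of the observed to expected CpG ratio (limits set on members at 0.204, 0.270 and 0.392), for members (circles), regions with a coding TSS (squares) and regions with no TSS (triangles), with 95% Wilson intervals. For members the H3K4me2 share runs from 0.926% to 19.1%, and the H3K4me1 share is lowest, at 0.309%, in the highest quartile.

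CpG was also counted at the start itself. The start window overlaps the region, so these counts are not independent of the ratio above. In the window from 250 bases before to 50 bases from the leading TSS on, the median number of CpG was 12.5 in members with lower H3K4me2, 4.0 in those with lower H3K4me1 and 5.0 in those in neither list. CpG-rich starts, with a ratio of at least 0.6 and at least 50% GC, were a class added after the calls were seen. Such a start was present in 206 members (15.9%) and at 40.2% of 69924 annotated coding starts. These sets are unlike: each member gives 1 leading start in a methylated region, whereas the coding starts include every annotated position, inside such a region or not. The members also include pseudogenes and small RNAs, whose annotated start is the end of a processed RNA. By type, a CpG-rich start was present in 31.0% of lincRNA members and 9.72% of processed_transcript members. Of the 206 members with a CpG-rich start, 52 had lower H3K4me2 (25.2%, interval 19.8 to 31.6) and 1 had lower H3K4me1, the *Gm10151* start printed above. Of the other 1090, 58 had lower H3K4me2 (5.32%, interval 4.14 to 6.82) and 39 had lower H3K4me1 (3.58%, interval 2.63 to 4.85). The GC box GGGCGG, searched on both strands, was in 49.1% of windows of members with lower H3K4me2, 15.0% of those with lower H3K4me1, 20.2% of those in neither list and 34.9% of all annotated starts. The CCAAT box was in 31.8%, 37.5%, 33.8% and 35.5% of the same sets. The letters GGAATG, bound by TEAD factors, were in 10 of 40 windows with lower H3K4me1 and in 13.8% of all starts, and AGATAA, bound by GATA factors, in 3 of 40 and 10.8%. The E-box CACGTG was in 0 of 40 windows with lower H3K4me1, which allows up to 7.5%, in 7.12% of those in neither list and in 6.65% of all starts. TATAAA was in 9.09% of windows with lower H3K4me2, 4 of 40 windows with lower H3K4me1 and 12.8% of all starts. The GC box and the E-box each contain a CpG.

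**Figure D4:**
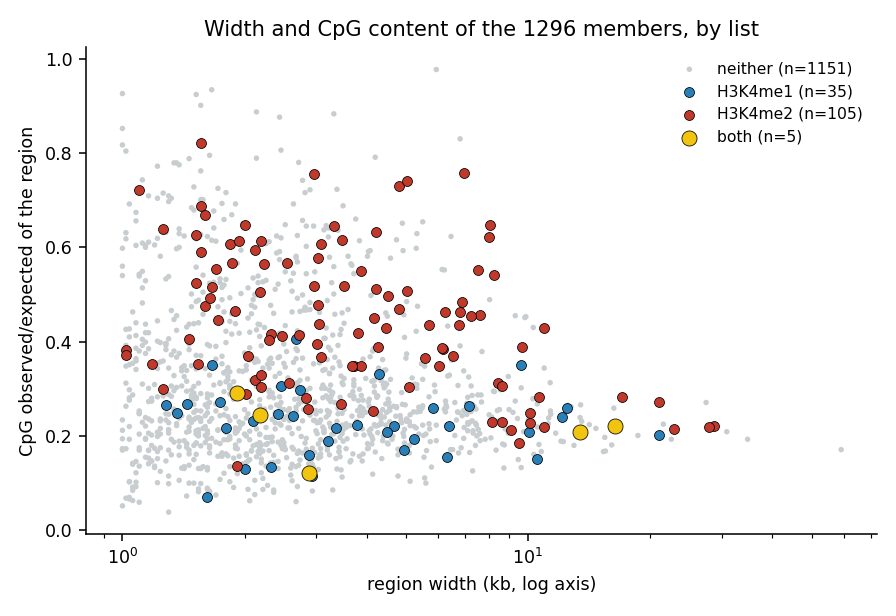
Width in kb (log axis) and observed to expected CpG ratio of the 1296 members, colored by list. Members with lower H3K4me2 only (105) reach a ratio of 0.822, and those with lower H3K4me1 only (35) have a ratio of at most 0.406.

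Position relative to coding genes also differed between the marks. A member counted as overlapping a coding gene when any base of its region did, wherever its TSS lay. Of all 1296 members, 787 overlapped none, as did 16 of the 40 with lower H3K4me1. Outside coding gene bodies, 82 of 787 members (10.4%, interval 8.47 to 12.7) had lower H3K4me2 and 16 (2.03%, interval 1.26 to 3.28) had lower H3K4me1. Where the region overlapped coding genes on the opposite strand only, 19 of 339 (5.60%, interval 3.62 to 8.59) had lower H3K4me2 and 18 (5.31%, interval 3.38 to 8.24) had lower H3K4me1. Where it overlapped a coding gene on the strand of a TSS inside, 9 of 170 (5.29%, interval 2.81 to 9.75) had lower H3K4me2 and 6 (3.53%, interval 1.63 to 7.49) had lower H3K4me1. For H3K4me2 the intervals of all these positions overlapped. For H3K4me1 only those outside coding genes and on the opposite strand did not overlap each other. Of the 339 opposite-strand members, 46 were in the highest CpG quartile, against 256 of the 787 outside genes. Within that quartile the H3K4me2 shares were 6 of 46 and 52 of 256, with overlapping intervals. Distance to the nearest coding TSS made less difference: lower H3K4me2 was called at 10.7% of 205 members within 5 kb, 8.6% of 744 at 5 to 50 kb and 6.92% of 347 farther away, with overlapping intervals. For members within 50 kb of a coding TSS that itself lay in a merged region, that neighbouring region had lower H3K4me2 beside 18 of 51 called members (35.3%, interval 23.6 to 49.0) and beside 133 of 599 others (22.2%, interval 19.1 to 25.7), again overlapping. Members with 1 TSS position had lower H3K4me2 in 6.74%, those with 2 in 13.5% and those with 3 or more in 19.1%, and their median widths were 2400, 2720 and 4110 bp.

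The region in both lists with a known muscle gene was that of *B230312C02Rik* and *Mir1a-1* (chr2:180118446-180131885, 13440 bp). The start of *B230312C02Rik* is on the minus strand and the 5′ end of the *Mir1a-1* hairpin, on the plus strand, lay 3163 bp from it, so that the genes point away from each other. miR-1 is the most abundant microRNA of heart muscle and promotes muscle differentiation. The region lay outside coding genes, 49042 bp from the nearest coding TSS, that of *Gata5*, a cardiac transcription factor gene. Downstream of *B230312C02Rik*, 2 further regions with no TSS, of 2120 and 2960 bp, had lower H3K4me1. A region on the other side (chr2:180132626-180135105, 2480 bp), with the hairpin of *Mir133a-2*, was in neither list. That hairpin is on the plus strand, like that of *Mir1a-1*, and its 5′ end need not be where its transcription begins. The calls at these hairpins are therefore not calls at their promoters. The other 4 members in both lists were *Gm16534* (chr2:31909026-31925445, 16420 bp), which overlapped exons of *Fam78a* and *Nup214*, *Gm9946* on chromosome 6 (2880 bp), *2810433D01Rik* on chromosome 11 (2180 bp) and the pseudogene *Gm12899* on chromosome 4 (1920 bp).

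**Figure D5:**
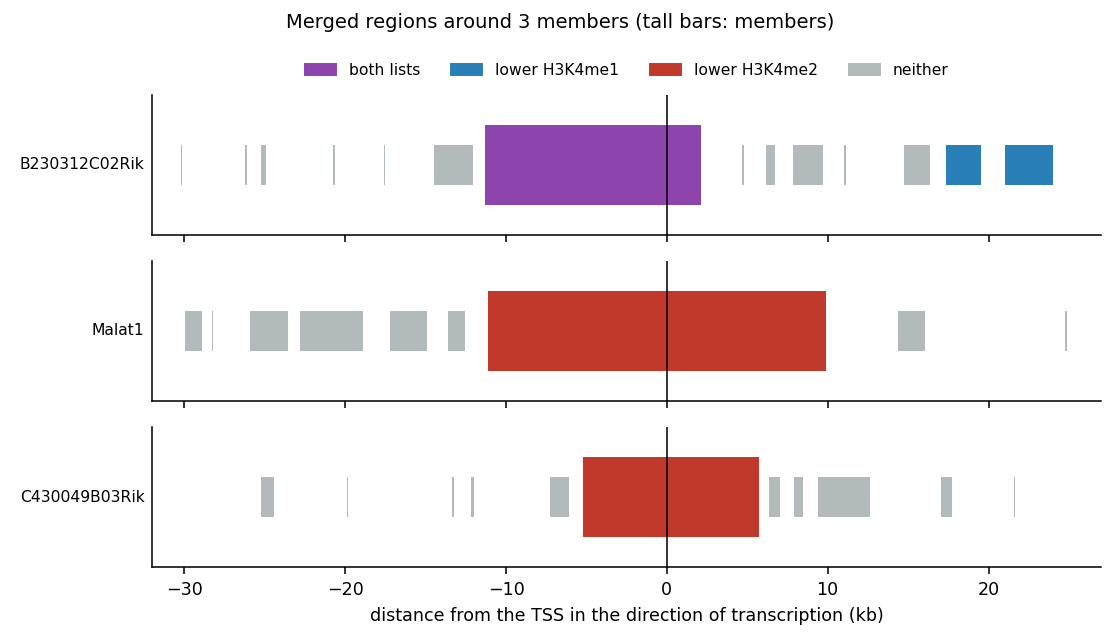
Merged regions around 3 members, by distance in kb from the TSS of *B230312C02Rik*, *Malat1* and *C430049B03Rik* in the direction of transcription, with tall bars for members and colors for the lists. The *B230312C02Rik* region spans from 11295 bp before to 2144 bp after its TSS, and 2 regions with lower H3K4me1 lie downstream of it.

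Of the heart and muscle microRNAs examined, 11 member regions held at least 1 hairpin, of which 2 had lower H3K4me2 (18.2%, interval 5.14 to 47.7) and 1 lower H3K4me1 (9.09%, interval 1.62 to 37.7), and the shares of all members lay inside both intervals. *Mir1a-1* was called for both marks and the region of *Mir322*, *Mir503* and *Mir351* with the lincRNA *C430049B03Rik* (chrX:50404646-50415585, 10940 bp) for H3K4me2. *Mir322* and *Mir503* slow the cell cycle and favor muscle differentiation. The hairpins of *Mir322* and *Mir503* lay 2841 and 3136 bp downstream of the start of that lincRNA, inside the same region. In neither list were *Mir208a*, which overlapped *Myh6* (chr14:55566186-55568785, 2600 bp), and *Mir208b*, which overlapped *Myh7* (chr14:55592046-55595445, 3400 bp), the genes of the cardiac myosin heavy chains. Also in neither were *Mir133a-2*, *Mir23a* (1640 bp), *Mir195* with *Mir497* (1000 bp, the narrowest width allowed), the *Mir17* cluster with its host *Mir17hg* (6800 bp), which promotes proliferation, *Dnm3os* with *Mir199a-2* and *Mir214* (9180 bp), *Mir133a-1* (8340 bp), and the smooth muscle microRNAs *Mir143* and *Mir145* with their host *Carmn* (21560 bp). Over all named microRNAs, 56 member regions held at least 1, of which 8 had lower H3K4me2 (14.3%, interval 7.42 to 25.7) and 1 lower H3K4me1 (1.79%, interval 0.316 to 9.45), and the shares of all members, 8.49% and 3.09%, lay inside these intervals. Those not yet described were *Mirlet7i* (chr10:122419246-122426185, 6940 bp), *Mir193b* (chr16:13446546-13452245, 5700 bp), *Mir681* (8420 bp), *Mir760* (8240 bp), and *Mir149* and *Mir153*, which lay in introns of *Gpc1* and *Ptprn2*.

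Among long non-coding genes known by function, 20 member regions were found, of which 6 had lower H3K4me2 (30%, interval 14.5 to 51.9) and 0 had lower H3K4me1, which allows up to 15%, beside 8.49% and 3.09% of all members. The list was chosen with earlier results of these data known, so the count describes these regions only. Those called were *Malat1* (chr19:5792766-5813805, 21040 bp), *Neat1* (chr19:5836166-5853205, 17040 bp), *Snhg5* (chr9:88414706-88419225, 4520 bp), *Dancr* under its vM1 name *2700023E23Rik* (chr5:74488306-74492105, 3800 bp) and both regions of *Dleu2* (chr14:62263606-62271665, 8060 bp, and chr14:62298306-62306305, 8000 bp). *Neat1* builds the paraspeckles of the nucleus, *Dancr* restrains differentiation of progenitor cells, and *Dleu2* hosts microRNAs of the miR-15 and miR-16 family. The region of *Malat1* covered 100% of that gene, and the region of *Neat1* covered 44.8% of its gene and overlapped exons of *Frmd8*. In neither list were *Pvt1* (8940 bp), *Mir17hg* (6800 bp), *Snhg7* (5320 bp), *Sox2ot* (3760 bp), *Rmst* (3060 bp), *Snhg12* (2620 bp), *Miat* (1960 bp), both regions of *Wt1os* (5940 and 2560 bp) a region with *Gm2301*, the vM1 name of *Tbx3os1* (3300 bp), *Snhg4* (6280 bp), *Epb41l4aos* (2640 bp), and the regions of *Dnm3os* and *Carmn* given above. Called and uncalled regions overlapped in width and in CpG content: the ratio was 0.272 at *Malat1* and 0.648 and 0.621 at *Dleu2*, and it was 0.830 at *Mir17hg* and 0.660 at *Sox2ot*.

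Imprinted and X-inactivation genes gave 7 member regions, of which 2 had lower H3K4me2 (28.6%, interval 8.22 to 64.1) and 0 lower H3K4me1, which allows up to 42.9%, beside 8.49% and 3.09% of all members. On the X chromosome these were *Jpx* (chrX:100687726-100691905, 4180 bp) and 1 of the 2 regions of *Ftx* (chrX:100811066-100814145, 3080 bp). *Xist*, the RNA that coats the inactive X (chrX:100675866-100679365, 3500 bp, ratio 0.688), was in neither list, like the other region of *Ftx* (chrX:100816546-100819325, 2780 bp). For these X-linked regions the sex of the embryos in each pool was not considered. The imprinted *H19*, together with *Nctc1*, lay in the second widest member, which was in neither list (chr7:149733246-149768025, 34780 bp), and both regions of *Meg3* (3200 and 1500 bp) were also uncalled. No name on the list of structural and catalytic RNAs matched a vM1 symbol, since the annotation gives such RNAs family names. Looked up by family name after their values were seen, 1 of 2 members with a Telomerase-vert start (chr3:96217126-96220645, 3520 bp), 1 of 3 with a Y_RNA (chr6:47730466-47732665, 2200 bp) and the only 1 with a Vault RNA (2180 bp) had lower H3K4me2, and none of these 6 had lower H3K4me1. Telomerase-vert is the family of the telomerase RNA template, and the uncalled region of that family was 1480 bp wide.

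The widest members with lower H3K4me2 included *Gm10532* in an intron of *Ctif* (28720 bp), the pseudogene *Gm13827*, which overlapped exons of *Sppl3* (chr5:115499706-115527705, 28000 bp), and *1110036E04Rik* (chr9:63888026-63910885, 22860 bp), whose nearest coding TSS was that of *Smad6*, an inhibitor of BMP signaling. Natural antisense or neighbor-named genes in that list were *Chrna1os* (10100 bp), beside the acetylcholine receptor gene *Chrna1*, *Asb17os* (10100 bp), whose region lay 53 bp from the *Asb17* TSS, *Oip5os1* (4820 bp), a conserved RNA that binds miR-7, *Hectd2os* (2580 bp) and *Fbxl12os* (2200 bp). Of the 40 members with lower H3K4me1, 24 overlapped coding gene bodies, and the position of all members is given above. *AC144778.1*, a predicted microRNA, was in an intron of *Tspan9* (chr6:128037986-128059045, 21060 bp). *Gm17141*, named after its value was seen, was in an intron of the calcium channel subunit gene *Cacna2d2* (chr9:107330626-107340705, 10080 bp). Other genes with such a member in an intron included *Disc1*, *Msi2*, *Kazn*, *Bcl11a* and *Ttll11*, so the hosts described here are examples and no theme is read from them. A U6 small nuclear RNA copy lay in an intron of *Cacna1c*, the cardiac L-type calcium channel gene (2420 bp, named after its value was seen), and a U4 copy in an intron of *Adcy5*, an adenylyl cyclase gene of the heart (7160 bp). *Gm10151* (12500 bp) and *Gm14488* (12140 bp) lay outside coding genes. The neighbor-named genes in this list were *Pitpnm2os2* (3780 bp) and *Tbc1d22bos* (1740 bp), both antisense to a coding gene body. Besides *Nctc1* with *H19*, the widest members in neither list were the predicted microRNA *AC154455.1* over *Zmiz1* (59160 bp), *n-R5s188* (30900 bp), *AC123616.1* (27480 bp) and a 5S_rRNA copy (22560 bp). By chromosome, the share with lower H3K4me2 ran from 3.03% on chromosome 7 to 17.6% on chromosome 16 (6 of 34) and 17.9% on the X (7 of 39). The share of all members was 8.49%. These counts are small, differences between chromosomes were not tested, and the sex of the pooled embryos was not considered.

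The members included genes that a later annotation calls protein-coding. In 62 members at least 1 gene is listed as protein-coding in RefSeq, and 8 of these (12.9%, interval 6.69 to 23.4) had lower H3K4me2 and 0 had lower H3K4me1, which allows up to 4.84%. The H3K4me2 share of all members, 8.49%, lay inside that interval. *Gm10664* is now *Apela* (chr8:67559546-67562025, 2480 bp), the gene of a peptide ligand of the apelin receptor needed for heart development. The others were *Oaz2*, *Smim5*, *Crybg3*, *Prss56*, *Enho*, *1810058I24Rik* and *Gm715*. These values were looked at after the calls were known.

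The members are a small part of the annotated non-coding genes. Of 14930 such genes, 1415 had a TSS in a member, 1593 only in a region that also held a coding TSS, 541 only in a region under 1000 bp and 11381 in no merged region. For lincRNAs, 301 of 1273 were in a member and 656 beside a coding TSS. The label of promoter rests on annotation alone: the small RNA members are placed by the ends of processed RNAs, and whether a member carries H3K4me3 cannot be read from these lists.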

How the data were processed

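ChIP-Seq libraries for H3K4me1, H3K4me2 and H3K4me3 with inputs were made from 3 pools per genotype. The authors called peaks, merged them into 1 list, and deposited it with lists of regions with lower H3K4me1 or H3K4me2 in mutant hearts, past a false discovery rate the study set. Per the labels, CASAVA 1.8.2, FastQC, Bowtie2, Bowtie and SAMtools were used with mm9; the peak caller and the test are not given in the sources used here. The deposited files hold region coordinates only, with no count or score. Coordinates are printed 1-based.

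Members were found by TSS position (GENCODE vM1, NCBIM37, the files' build) and called by exact match of coordinates. Every merged width was a multiple of 20 bp. Shares with 95% Wilson intervals were computed in Python 3.11.15 (pandas 2.3.3, numpy 2.4.6, scipy 1.17.1, pysam 0.24.0) and tested on simulated data; limits at 0 use 3 counts. No test was run over regions, which are not replicates. Members and lists were chosen with earlier results of these data known. Named genes were members on 4 gene lists, the 5 widest in each decreased list and in neither, the widest 2 of each gene type in each list, those in both lists, those named after a coding neighbour, and the narrowest; others are named after their values were seen. Symbols were also matched through RefSeq names and synonyms on the same chromosome (692 leading symbols matched), a step added after calls were seen, as were CpG-rich starts and the genes whose starts are printed. RefSeq matched 62 of 145 microRNA genes to a mature sequence.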

Additional observations from a re-analysis of the deposited data

How the results depend on the processing

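Each of the 3 shares (members with lower H3K4me1, lower H3K4me2 or both) was recomputed under 10 alternatives, and under 1 chosen after seeing the data. The share with lower H3K4me2, 8.49%, moved outside its own interval when the minimum width was 500 bp (6.86%) or 2000 bp (10.4%), when TSS within 1 kb of the region counted (6.23%), when only long non-coding types were kept (10.2%) and when base pairs were counted in place of regions (12.4%). The share with lower H3K4me1 moved to 4.5% when base pairs were counted. All other alternatives stayed inside the intervals of the main shares, among them an overlap of 1 bp or of 50% in place of identical coordinates, which changed no count, and leaving out the 62 members with a gene that RefSeq calls protein-coding (8.27% and 3.24%). The lincRNA share of lower H3K4me2 ran from 15.4% to 19% and the processed_transcript share from 5.51% to 8.05% under the alternatives run for them. The lists hold no score, so a stricter threshold could not be tried. No paired analysis was possible because the lists hold no value per replicate, and for the same reason no replicate could be left out. The depth is unknown.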
